A study of Mus musculus with 15 samples.

Results

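10 genes of the MHC class II pathway were followed across 5 sorted murine subtypes. The rule names them as the chains and the loading machinery of the pathway and itself uses no measured value. The members were, however, chosen with earlier results of these data known. They are H2-Aa, H2-Ab1, H2-Eb1, Cd74, Ciita, H2-DMa, H2-DMb1, H2-DMb2, H2-Oa and H2-Ob. Each symbol matched 1 of the 38924 Ensembl gene identifiers of the deposited tables. All 10 exceeded 1 CPM (counts scaled to the library total) in at least 3 libraries and so were among the 14456 genes tested.

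The study profiled mononuclear phagocytes to match murine with human subtypes. The 15 libraries used here came from naive female C57BL/6 mice, labelled as 6 to 8 weeks old, with 3 libraries for each subtype and pooled cells of 5 mice in each library. From spleen came CD8+ DCs and CD4+ DCs, the DC1 and DC2 lineages of conventional dendritic cells, and Ly6C+ monocytes. From the lymph node (LN) that drains the lung came CD103+ DCs (DC1) and CD11b+ DCs (DC2). DCs were sorted as CD11c+ cells that carried MHC class II protein, LN DCs on a high level of it, while monocytes were sorted on CD11b and Ly6C. LNs and spleens were taken from different cohorts of mice. Comparisons of DCs with monocytes, and of LN with spleen, therefore also compare gates set on the protein product of H2-Aa and H2-Ab1, and organ cannot be told apart from cohort or gate.

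MHC class II molecules carry peptides from endocytosed material to the surface, where CD4+ T cells read them. H2-Aa and H2-Ab1 encode the alpha and beta chains of I-A. H2-Eb1 encodes the beta chain of I-E, which C57BL/6 mice do not display because their alpha chain gene, H2-Ea, is not functional. Cd74 encodes the invariant chain, which fills the groove until proteases trim it. H2-M, built from H2-DMa with H2-DMb1 or H2-DMb2, then exchanges the remaining fragment for peptide, and H2-O, built from H2-Oa and H2-Ob, inhibits H2-M. Ciita encodes the coactivator that is required for transcription of class II genes and acts through proteins bound to the X and Y boxes of their promoters. DCs are known for constant class II synthesis, which they shut down as they mature, while Ly6C+ monocytes carry little class II.

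8 of the 10 genes lie on mouse chromosome 17 (mm10, Ensembl 75 annotation) between position 34092340, the start of H2-Oa, and 34316199, the end of H2-Eb1. From the first to the last position they are H2-Oa, H2-DMa, H2-DMb2, H2-DMb1, H2-Ob, H2-Ab1, H2-Aa and H2-Eb1, all on the plus strand except H2-Aa. Ciita lies on chromosome 16 (10488178 to 10527564, plus strand). Counting was without strand, so that over 15.2% of the exon length of H2-Oa its reads cannot be told apart from those of BC051537 on the other strand. The overlap was 2.11% of exon length for Ciita, with Dexi, and 0.851% for Cd74, with Mir5107. H2-DMb1 and H2-DMb2 are close paralogs, and reads that mapped to both were not counted, so that their separate levels are less certain than their sum.

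The promoters of these genes are shown because the members moved together in most comparisons. RefSeq windows (GRCm38.p6) of 250 bases before to 50 bases after each start were found for 7 of the 10 genes. The letters TGATTGG, which hold the reverse complement of the CCAAT box and correspond to a Y box, were chosen after these windows had been read, as was ATGATG, part of the X box stretch. For the share over all windows, both were searched on both strands of the whole window. In the genes shown here, TGATTGG was searched only on the strand of the gene and before the start. ATGATG was searched only on that strand in the 45 bases before it. The shares thus come from a wider search than the matches given here. The 2 windows of H2-DMa stand at RefSeq starts 34122832 and 34125518, upstream of its Ensembl start at 34135182, so that the sequence before the Ensembl start was not searched. TGATTGG was found before the start in the 6 other genes and in 7.82% of all 32851 windows. ATGATG was found in 11.2% of all windows and both together in 0.715%, or 235 windows. In 4 members (H2-Eb1, H2-DMb1, H2-DMb2 and H2-Ob) both stood together, in the shown stretch, ATGATG first, with 15 to 18 bases between them. The following stretches run from 45 bases before to 15 bases after TGATTGG on the strand of the gene, with both motifs in capitals.
H2-Aa, chr17:34287852-34287918, minus strand: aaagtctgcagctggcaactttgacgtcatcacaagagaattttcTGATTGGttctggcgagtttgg
H2-Eb1, chr17:34305761-34305827, plus strand: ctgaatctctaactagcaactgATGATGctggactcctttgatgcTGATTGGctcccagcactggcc
H2-DMb2, chr17:34145112-34145178, plus strand: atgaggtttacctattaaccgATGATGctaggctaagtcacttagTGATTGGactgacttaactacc
H2-Oa, chr17:34092289-34092355, plus strand: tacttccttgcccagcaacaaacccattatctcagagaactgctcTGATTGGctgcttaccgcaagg
H2-Ob, chr17:34238801-34238867, plus strand: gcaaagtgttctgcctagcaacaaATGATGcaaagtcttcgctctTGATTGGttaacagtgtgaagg
The H2-DMb1 stretch lies inside the first exon of Ensembl 75, upstream of the RefSeq start, and is not printed. It matched that of H2-DMb2 at 58 of 67 bases (86.6%). H2-Eb2, a further beta chain gene next to H2-Eb1, held TGATTGG 102 bases before its start but not ATGATG in the 45 bases before that. Its stretch was chr17:34325528-34325594, plus strand: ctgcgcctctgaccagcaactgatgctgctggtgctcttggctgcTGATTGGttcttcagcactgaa
A match describes these letters only, and no match leaves other spellings of the boxes and the other strand unread.

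The libraries held 4531243 to 10233914 counts on genes. The sum of 3 DC markers lay between 1413 and 2585 CPM in the 12 DC libraries and between 115 and 193 in monocytes, and 6 monocyte markers summed to 5804 to 6397 in monocytes against at most 686 in any DC library. Among DCs, summed DC1 and DC2 markers followed the labels in both organs. Neither list was particular to DCs, as monocytes had 2283 to 2599 CPM of the 6 DC2 markers and 479 to 594 of the 7 DC1 markers. The 6 macrophage markers summed to 1024 to 1321 CPM in splenic CD4+ DCs, 615 to 893 in LN CD11b+ DCs and 399 to 485 in monocytes. They summed to 165 to 271 in splenic CD8+ DCs and 165 to 216 in LN CD103+ DCs. LN CD103+ DC replicate 1 stood apart from its 2 replicates. All 10 measured B cell markers of a list of 11 were higher in it than in both, with Cd79a at 50.4 CPM against 1.05 and 3.65 CPM and Cd79b at 68.4 CPM against 2.81 and 3.65 CPM. The summed level of the list was 567 CPM against 184 and 249 CPM, while it ranged from 205 to 388 CPM in LN CD11b+ DCs, from 353 to 475 in splenic DCs and from 304 to 413 in monocytes, most of it Ighm. B cells are known to express class II, H2-O and Ciita. All 10 members were also highest in this library among the 3, by 1.51 times the mean of the others for Cd74 and 6.34 times for Ciita. Other marker sums set replicate 1 apart as well. Its 7 DC1 markers (1142 CPM against 812 and 838) and 6 plasmacytoid DC markers (72.7 against 25.3 and 39.4) were highest. Its 4 migratory DC markers (13522 against 15432 and 14517) and 6 T cell markers (82.8 against 100 and 123) were lowest. The part of these transcripts in the class II values was not tested. Where leaving this library out changed a call or moved a fold clearly, the value without it is given too.

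**Figure D1:**
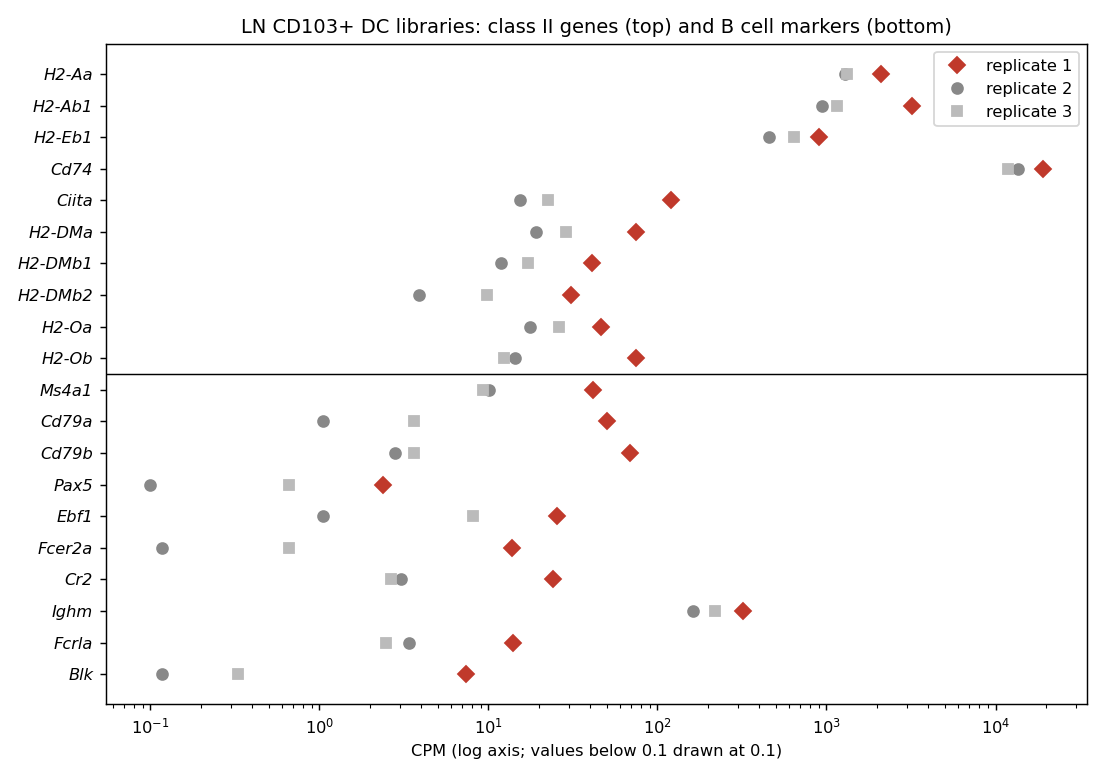
CPM (log axis) of the 10 class II genes and 10 B cell markers in the 3 LN CD103+ DC libraries, 1 symbol per library. Replicate 1 lies to the right of the other 2 for all 20 genes, from 1.51 times their mean (Cd74) to 35.4 times (Fcer2a).

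Class II transcripts made up a large share of the RNA of splenic DCs. The 10 genes together took 9.71% to 11.4% of all gene counts in splenic CD8+ DCs, 7.69% to 12.7% in splenic CD4+ DCs and 3.59% to 6.58% in LN CD11b+ DCs. In LN CD103+ DCs the share was 1.38% to 2.398%, and in monocytes 0.953% to 1.197%. Most of these counts were of Cd74 in every library, so that the share mainly describes that gene. The share was lower in LN than in splenic DCs by a log2 difference of -1.78 (exact permutation test within lineage, two-sided p = 0.005, adjusted p = 0.015 over 15 tests of ratios and shares), which is 3.42-fold. That fold averages unlike drops in the lineages. The geometric mean fell from 10.3% to 1.68% in DC1 and from 10.2% to 5.31% in DC2. It was 5.23-fold lower in monocytes than in DCs (exact permutation test of 3 against 12 libraries, p = 0.0022, adjusted p = 0.011, the smallest p this design allows). In this and the other permutation tests of monocytes, the 12 DC libraries come from different subtypes and organs. They are not 12 like replicates, and the p-value does not measure the spread between pools of mice alone. In LN, every CD103+ library lay below every CD11b+ library, whereas the splenic lineages overlapped, and DC1 against DC2 averaged over both organs did not pass the test (exact permutation test within organ, p = 0.055, adjusted p = 0.103). In bulk RNA, fewer cells of a kind and less RNA per cell cannot be told apart.

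**Figure D2:**
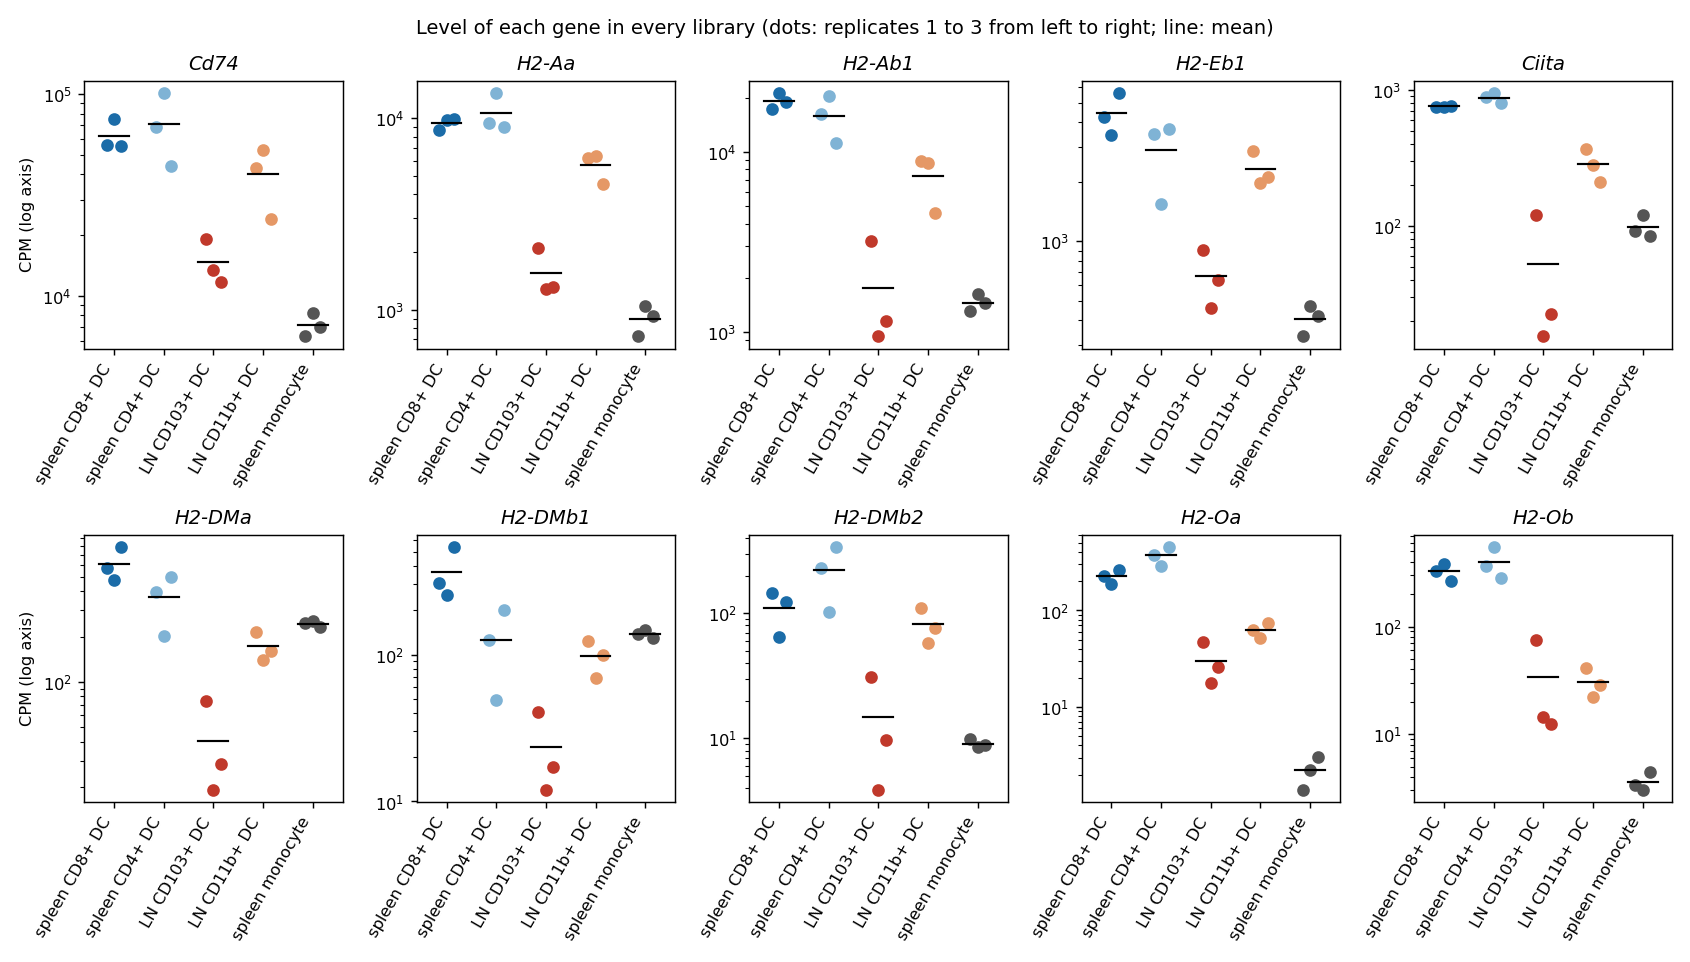
CPM (log axis, 1 panel per gene) of the 10 genes in the 15 libraries, with replicates 1 to 3 from left to right in each subtype and a line at the mean of 3. A splenic DC subtype has the highest mean in each panel, LN CD103+ DCs lie below LN CD11b+ DCs in 9 of 10 panels, and monocytes lie above all LN DC libraries for H2-DMa and H2-DMb1 but below all DC libraries for H2-Oa and H2-Ob.

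Cd74 (chromosome 18 from 60803848 to 60812646, plus strand) was the most abundant transcript per length (TPM, counts scaled by gene length and library total) of splenic CD8+, splenic CD4+ and LN CD11b+ DCs, and the fourth most abundant of LN CD103+ DCs and of monocytes. Its level was 56235, 74989 and 55369 CPM in the splenic CD8+ DC libraries and 68479, 101096 and 43910 in the splenic CD4+ DC libraries. LN CD11b+ DCs had 43232, 53064 and 24124 CPM, LN CD103+ DCs 19046, 13499 and 11788 CPM, and monocytes 6296, 8233 and 7035 CPM. The LN CD103+ and the monocyte libraries thus lay below all 9 other libraries and apart from each other. The range of splenic CD4+ DCs overlapped those of splenic CD8+ and LN CD11b+ DCs, which did not overlap each other. Neighbours in that order differed between LN CD11b+ and LN CD103+ DCs (log2 fold change 1.44, 95% confidence interval 0.76 to 2.13, edgeR quasi-likelihood adjusted p = 0.00541) and between LN CD103+ DCs and monocytes (1.04, 0.36 to 1.72, adjusted p = 0.0111). The second of these missed the threshold without LN CD103+ DC replicate 1 (adjusted p = 0.0609).

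For both I-A chains the splenic DCs came first by their means, then LN CD11b+ DCs, LN CD103+ DCs and monocytes. H2-Ab1 measured 17338, 21189 and 18886 CPM in splenic CD8+ DCs and 16158, 20369 and 11187 in splenic CD4+ DCs. In LN CD11b+ DCs it had 8859, 8697 and 4565 CPM, in LN CD103+ DCs 3202, 946 and 1149 CPM, and in monocytes 1306, 1621 and 1446 CPM. LN CD103+ DCs and monocytes overlapped, and their difference in H2-Ab1 did not pass the test (log2 fold change of monocytes over LN CD103+ DCs -0.28, 95% confidence interval -1.05 to 0.50, adjusted p = 0.55). H2-Aa was at 8688 to 9884 CPM in splenic CD8+ DCs, 8967 to 13504 in splenic CD4+ DCs, 4535 to 6351 in LN CD11b+ DCs, 1286 to 2089 in LN CD103+ DCs and 725 to 1043 in monocytes. The difference between the splenic subtypes in H2-Aa did not pass the test (log2 fold change of CD4+ over CD8+ DCs 0.17, 95% confidence interval -0.34 to 0.68), and LN CD103+ DCs lay 3.64-fold below LN CD11b+ DCs (adjusted p = 4.44e-05). The lead of LN CD103+ DCs over monocytes in H2-Aa (0.80, adjusted p = 0.0101) missed the threshold without LN CD103+ DC replicate 1 (adjusted p = 0.0853) and without monocyte replicate 1 (adjusted p = 0.0602).

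H2-Eb1, whose protein has no partner chain in this strain, was still among the 20 most abundant genes by TPM of splenic CD8+ DCs (rank 9), splenic CD4+ DCs (rank 12) and LN CD11b+ DCs (rank 19). It measured 4239, 3433 and 5581 CPM in splenic CD8+ DCs, 3484, 1540.1 and 3684 in splenic CD4+ DCs and 2868, 1967 and 2119 in LN CD11b+ DCs. The range of splenic CD4+ DCs again reached into both others, and splenic CD8+ DCs lay above LN CD11b+ DCs in every library. LN CD103+ DCs had 902, 459.6 and 638 CPM and monocytes 332, 472 and 420.2 CPM. H2-Ea itself, annotated as H2-Ea-ps, stayed at or below 0.884 CPM in every library and was not tested.

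Ciita, the coactivator of the class II genes, was high in both splenic DC subtypes and lowest in LN CD103+ DCs. It measured 754, 755 and 759 CPM in splenic CD8+ DCs, 886, 946 and 801 in splenic CD4+ DCs and 367, 278 and 210.4 in LN CD11b+ DCs. LN CD103+ DCs had 119.6, 15.3 and 22.4 CPM, and monocytes 91.7, 119.7 and 84.3 CPM. The 2 LN CD103+ libraries other than replicate 1 held 131 and 135 Ciita counts, below every other library. With all 3 libraries, monocytes and LN CD103+ DCs were not told apart (log2 fold change of monocytes 0.91, 95% confidence interval -0.09 to 1.91, adjusted p = 0.117), and without replicate 1 Ciita was higher in monocytes by 2.39 (adjusted p = 1.05e-06). Without that library monocytes thus had more Ciita than LN CD103+ DCs, while neither the chains nor Cd74 were called in either direction. Cd74 was then at -0.82 (edgeR quasi-likelihood adjusted p = 0.0609), H2-Aa at -0.53 (0.0853), H2-Eb1 at -0.43 (0.29) and H2-Ab1 at 0.47 (0.212). Further up, the splenic subtypes were not told apart (log2 fold change of CD4+ over CD8+ DCs 0.22, adjusted p = 0.774). Splenic CD8+ DCs lay above LN CD11b+ DCs (1.41, adjusted p = 0.0243, where 39.9% of tested genes were called), which missed the threshold without CD11b+ replicate 2 (0.0674) or 3 (0.0882).

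H2-DMa and H2-DMb1, genes of H2-M, which catalyses peptide loading, did not follow the order of the chains. H2-DMa encodes the alpha chain of H2-M and measured 567, 475 and 788 CPM in splenic CD8+ DCs, 394, 202 and 495 in splenic CD4+ DCs and 215, 141 and 161 in LN CD11b+ DCs. Monocytes had 244, 253 and 233 CPM of H2-DMa, above all 6 LN DC libraries, and LN CD103+ DCs had 74.4, 19.1 and 28.7 CPM. H2-DMb1, a beta chain, was also higher in monocytes than in all 6 LN DC libraries. It had 138, 146 and 129.98 CPM in monocytes against 124, 69.1 and 99.5 in LN CD11b+ DCs and 40.9, 11.9 and 17.1 in LN CD103+ DCs. The gap between monocytes and LN CD11b+ DCs did not pass the test for either gene (log2 fold change 0.50 for both, adjusted p = 0.288 for H2-DMa and 0.355 for H2-DMb1). The gap to LN CD103+ DCs did, at 5.98-fold for H2-DMa (adjusted p = 2.47e-05) and 5.93-fold for H2-DMb1 (adjusted p = 0.00012). Without LN CD103+ DC replicate 1 these log2 fold changes grew from 2.58 to 3.35 for H2-DMa and from 2.57 to 3.255 for H2-DMb1.

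H2-DMb2, the other beta chain, was distributed differently from its paralog. It measured 146, 64.1 and 122 CPM in splenic CD8+ DCs, 229, 102 and 339 in splenic CD4+ DCs and 111, 57.6 and 75.6 in LN CD11b+ DCs. In LN CD103+ DCs it was at 30.8, 3.86 and 9.78 CPM and in monocytes at 9.83, 8.55 and 8.95 CPM. H2-DMb1 was highest in splenic CD8+ DCs (306, 255 and 539.7 CPM) and lower in splenic CD4+ DCs (126, 48.8 and 201 CPM). The ratio of H2-DMb2 to H2-DMb1 per length (TPM) was 0.195 to 0.412 in splenic CD8+ DCs against 1.46 to 1.80 in splenic CD4+ DCs, and 0.280 to 0.652 in LN CD103+ DCs against 0.657 to 0.770 in LN CD11b+ DCs. In both organs every DC1 library lay below every DC2 library, narrowly in LN, and the ratio was 3.14-fold lower in DC1 (exact permutation test within organ, p = 0.005, the smallest possible, adjusted p = 0.015). In monocytes the ratio was 0.0506 to 0.0615, 10.6-fold below DCs (exact permutation test, adjusted p = 0.011).

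H2-O, the inhibitor of H2-M, was high in splenic DCs, lower in LN DCs and near the detection limit in monocytes. H2-Oa measured 226, 189 and 262 CPM in splenic CD8+ DCs and 377, 287 and 456 in splenic CD4+ DCs. It was at 62.4, 52.5 and 74.7 CPM in LN CD11b+ DCs and 46.6, 17.7 and 26.0 in LN CD103+ DCs. Monocytes held only 7, 23 and 23 counts of H2-Oa, or 1.38, 2.24 and 3.03 CPM. None of the 5 subtypes overlapped another for H2-Oa, although splenic CD4+ over CD8+ DCs did not pass the test (log2 fold change 0.73, 95% confidence interval 0.14 to 1.31, adjusted p = 0.0621). It passed without LN CD103+ DC replicate 1 (0.0262) or 2 (0.0384) or splenic CD4+ DC replicate 2 (0.0421). H2-Ob had 263 to 384 CPM in splenic CD8+ DCs, 285 to 549.6 in splenic CD4+ DCs and 3.01 to 4.47 in monocytes. In LN the DC subtypes overlapped for H2-Ob, at 41.5, 22.1 and 28.7 CPM in CD11b+ DCs and 74.4, 14.3 and 12.4 in CD103+ DCs. Monocytes were lower than splenic CD8+ DCs by a log2 fold change of -6.62 for H2-Oa (adjusted p = 1.6e-10) and -6.50 for H2-Ob (adjusted p = 7.21e-08).

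Monocytes kept H2-DMa and H2-DMb1 transcripts while H2-DMb2 and H2-O were low, so that the ratio of H2-O to H2-M stood apart. The ratio of summed H2-O to summed H2-M TPM was 0.309 to 0.532 in splenic CD8+ DCs, 0.688 to 1.82 in splenic CD4+ DCs, 0.649 to 0.819 in LN CD103+ DCs and 0.217 to 0.314 in LN CD11b+ DCs. In monocytes it was 0.00849 to 0.0158, 48-fold below DCs (exact permutation test of 3 against 12 libraries, adjusted p = 0.011). Between lineages the ratio ran in opposite directions in the organs, higher in CD4+ than in CD8+ DCs in spleen and higher in CD103+ than in CD11b+ DCs in LN, without overlap in either, and the average over organs did not pass the test (exact permutation test, adjusted p = 0.95). That crossing was read from the libraries and was not tested. The LN to spleen difference did not pass the test either (log2 difference -0.58, exact permutation test, adjusted p = 0.492).

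**Figure D3:**
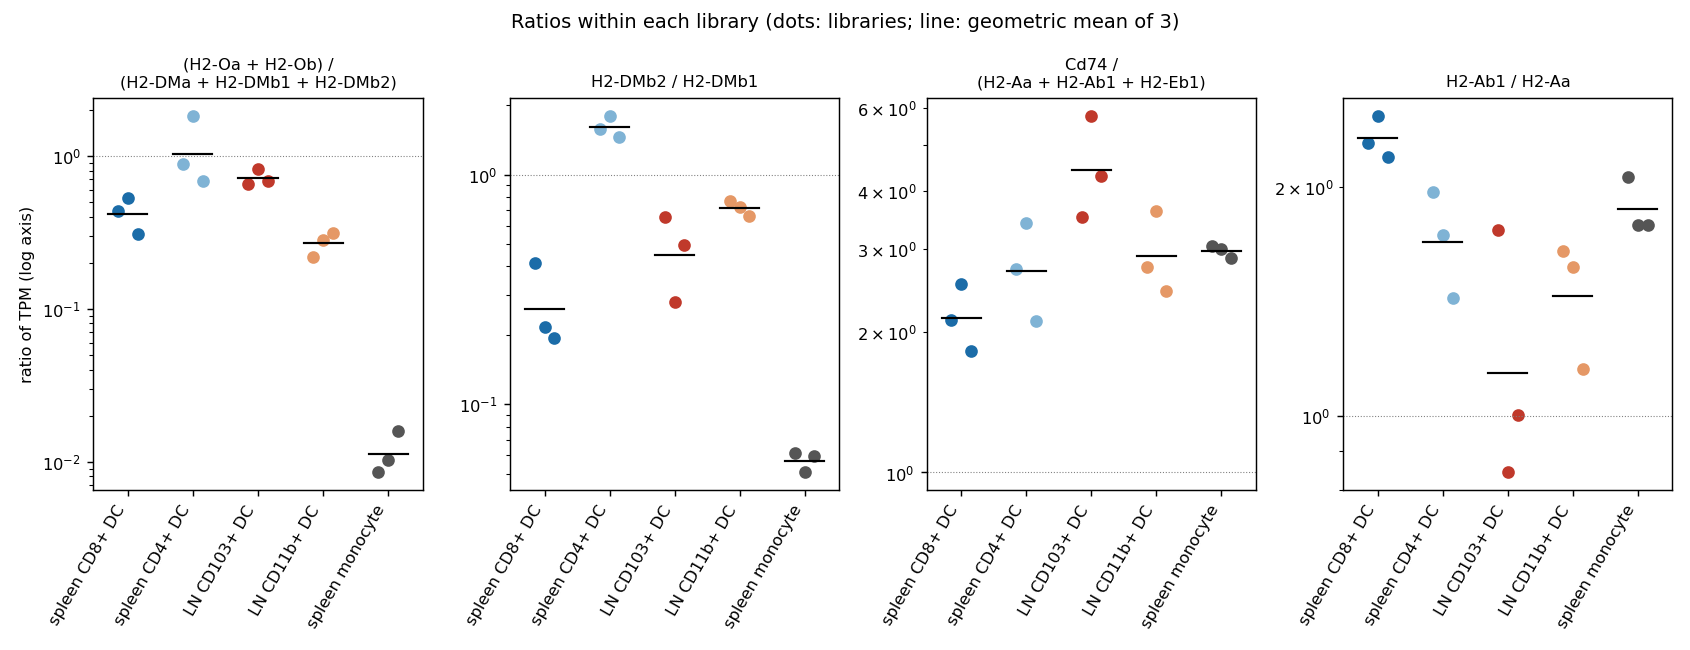
Ratios of TPM between members in each library, 1 panel per ratio, by subtype (log axes, 1 dot per library, line at the geometric mean of 3). The H2-O to H2-M and H2-DMb2 to H2-DMb1 ratios of monocytes lie below those of all 12 DC libraries.

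The invariant chain kept a narrower ratio to its partners. Cd74 stood at 1.82 to 3.42 times the sum of H2-Aa, H2-Ab1 and H2-Eb1 (TPM) in splenic DCs, 2.44 to 5.79 times in LN DCs and 2.87 to 3.05 times in monocytes. The ratio was 1.495-fold higher in LN than in splenic DCs, which did not pass the correction (exact permutation test, p = 0.04, adjusted p = 0.0857). The beta to alpha chain ratio of I-A, H2-Ab1 over H2-Aa, was 1.43 to 2.48 in splenic DCs and 0.842 to 1.75 in LN DCs. Its LN to spleen difference had an adjusted p of exactly 0.05 (exact permutation test, p = 0.02) and was not counted as called. In LN CD103+ DCs it was 1.75 in replicate 1 and 0.842 and 1.00 in the others.

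Within spleen, H2-DMb1 was higher in CD8+ than in CD4+ DCs (log2 fold change 1.55 ± 0.44 SE, edgeR quasi-likelihood adjusted p = 0.0125). It was the 1 member of 10 called, where 27.4% of all tested genes were called and 13.1% were higher in CD8+ DCs. With the replicate number as a block 3 were called, H2-DMb2 (-0.995, adjusted p = 0.0304) and H2-Oa (-0.71, adjusted p = 0.0192) being lower in CD8+ DCs, and with no filter on low counts 5 were. The H2-DMb1 call missed the threshold without splenic CD8+ DC replicate 3 (adjusted p = 0.0785) or splenic CD4+ DC replicate 2 (adjusted p = 0.0545). That CD4+ library was lowest of its group for H2-DMa, H2-DMb1, H2-DMb2, H2-Oa and H2-Eb1 and highest for Cd74, H2-Aa, H2-Ab1, Ciita and H2-Ob.

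Within LN, DC1 were lower than DC2 in nearly the whole pathway. 9 of 10 members were lower in CD103+ than in CD11b+ DCs and none was higher, where 7.73% of all tested genes were lower and 12.9% were called in either direction. All 9 had no overlap between the groups, against 15.8% of tested genes with all CD103+ libraries lower. The log2 fold changes ran from -1.07 for H2-Oa (adjusted p = 0.0194) to -2.46 for H2-DMb2 (adjusted p = 0.00413), with a median over members of -1.96 against -0.0055 over all genes. H2-Ob was the exception at 0.12 (adjusted p = 0.912). Without CD103+ replicate 1 it was lower too, at -1.21 (adjusted p = 0.0187), so that all 10 were lower while 10.6% of genes were called. Other folds then widened, from -2.44 to -3.92 for Ciita, from -2.46 to -3.61 for H2-DMb2, from -2.08 to -2.855 for H2-DMa, from -2.06 to -2.81 for H2-Ab1 and from -2.07 to -2.76 for H2-DMb1. H2-Oa missed the threshold without CD103+ replicate 2 (adjusted p = 0.113), CD103+ replicate 3 (adjusted p = 0.0854) or CD11b+ replicate 3 (adjusted p = 0.0717). The 4 migratory DC markers also differed, summing to 13522 to 15432 CPM in CD103+ and 6459 to 8717 in CD11b+ DCs. Their part in the class II values was not tested.

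Between organs, DC1 showed lower class II transcripts in LN for every member. All 10 were lower in LN CD103+ than in splenic CD8+ DCs, where 21.8% of tested genes were lower and 45.6% were called. None overlapped, and 27.6% of tested genes had all LN libraries lower. The fold was 4.21 for Cd74, 6.05 for H2-Aa, 10.8 for H2-Ab1, 6.63 for H2-Eb1, 14.4 for Ciita, 14.99 for H2-DMa, 15.8 for H2-DMb1, 7.47 for H2-DMb2, 7.50 for H2-Oa and 9.68 for H2-Ob. Adjusted p-values (edgeR quasi-likelihood test) lay between 1.58e-07 for H2-Aa and 0.000239 for H2-DMb2. Without CD103+ replicate 1 all 10 stayed called, and the log2 fold changes widened from -3.85 to -5.33 for Ciita, from -3.44 to -4.19 for H2-Ab1, from -3.91 to -4.68 for H2-DMa, from -3.98 to -4.67 for H2-DMb1, from -2.91 to -4.05 for H2-DMb2 and from -3.27 to -4.60 for H2-Ob. Other markers moved with this comparison. 6 T cell markers summed to 3.64 to 11.8 CPM in splenic CD8+ and 82.8 to 123 in LN CD103+ DCs, with 5 higher in LN and none lower and up to 3 of the 6 at 0 counts in a splenic CD8+ library. 7 DC1 markers summed to 3748 to 5871 CPM in spleen and 812 to 1142 in LN, with 6 lower in LN and none higher, and 4 migratory DC markers were all higher in LN. Their part in the class II values was not tested.

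In DC2 fewer members were called between organs. 7 of 10 members were lower in LN CD11b+ than in splenic CD4+ DCs and none was higher, where 13.8% of tested genes were lower and 33.1% were called. 5 members had all LN libraries lower, against 16.4% of tested genes. The lowest values were those of the H2-O genes, H2-Ob at a log2 fold change of -3.69 (adjusted p = 1.74e-05) and H2-Oa at -2.57 (adjusted p = 2.42e-06). Ciita was at -1.62 (adjusted p = 0.0133), H2-DMb2 at -1.45 (0.0325), H2-Ab1 at -1.11 (0.0279), H2-DMa at -1.08 (0.0355) and H2-Aa at -0.90 (0.0077). Cd74 at -0.83 (adjusted p = 0.0564), H2-DMb1 at -0.36 (0.572) and H2-Eb1 at -0.32 (0.458) were not called. With the replicate number as a block Cd74 was called too (-0.82, adjusted p = 0.0127). Single libraries decided several of these. H2-Ab1 missed the threshold without CD4+ replicate 1 or 2 or CD11b+ replicate 3 (adjusted p 0.0546 to 0.115), H2-DMa and H2-DMb2 without CD4+ replicate 1 or 3 or CD11b+ replicate 2 or 3 (0.0649 to 0.142) and Ciita without CD11b+ replicate 3 (0.0541), while Cd74 was called without CD4+ replicate 3 (0.0153), CD11b+ replicate 2 (0.0343) or CD8+ replicate 2 (0.0499). The 6 T cell markers summed to 13.5 to 17.3 CPM in splenic CD4+ and 60.8 to 89.7 in LN CD11b+ DCs, with 5 higher and 1 lower in LN. As in DC1, lineage markers were lower in LN, the 6 DC2 markers summing to 1634 to 2774 CPM in spleen and 825 to 923 in LN. The 4 migratory DC markers summed to 623 to 823 CPM in spleen and 6459 to 8717 in LN. The part of these markers was not tested.

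**Figure D4:**
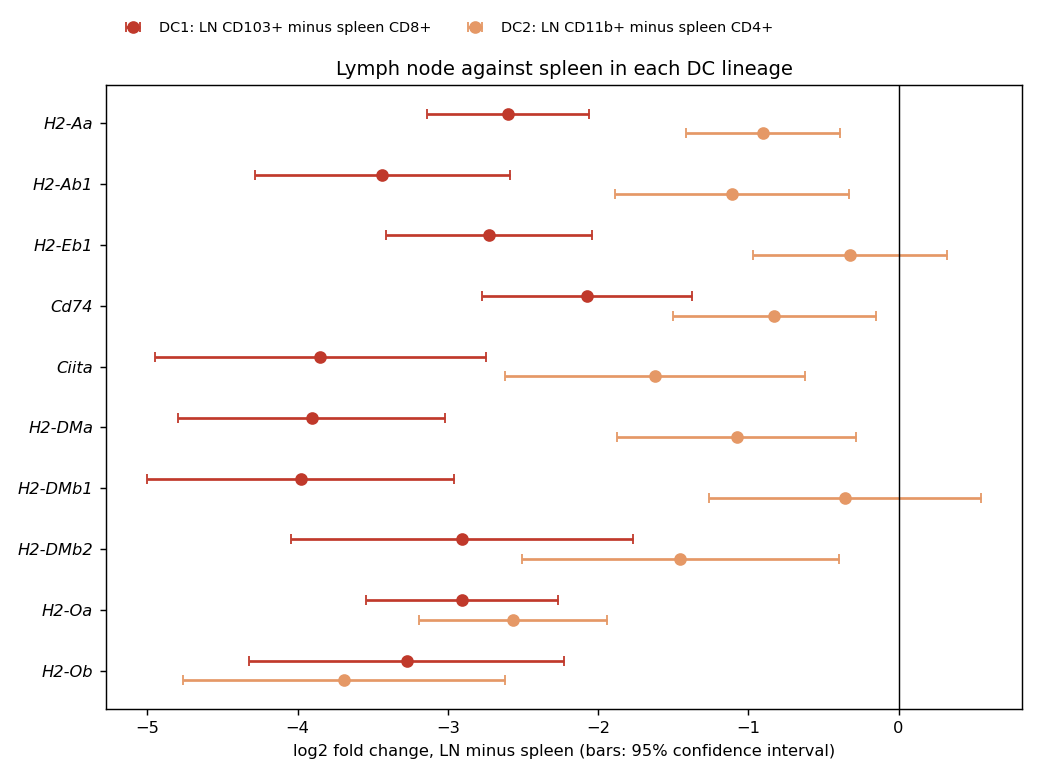
Log2 fold change of LN over splenic DCs for the 10 genes in DC1 and in DC2, with bars of 95% confidence intervals from the edgeR fit. All 10 DC1 values lie between -2.07 and -3.98, while DC2 values run from -0.32 for H2-Eb1 to -3.69 for H2-Ob.

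Whether the organ difference differed between lineages was tested directly as an interaction. 6 of 10 members had a larger LN to spleen drop in DC1 than in DC2, where 6.03% of tested genes were lower in this sense and 11.2% were called. H2-DMb1 had -3.62 (95% confidence interval -4.95 to -2.30, adjusted p = 0.000878), H2-DMa -2.83 (adjusted p = 0.00214), H2-Eb1 -2.404 (0.00142), H2-Ab1 -2.33 (0.00686) and H2-Aa -1.70 (0.00333). Ciita passed at -2.23 (adjusted p = 0.0381) but missed the threshold in 11 of the 15 fits that left out 1 library (0.0505 to 0.0973). Without CD103+ replicate 1 it was -3.71 (adjusted p = 2.67e-06), and H2-DMb2, at -1.45 (0.215) with all libraries, then passed at -2.60 (0.0113). H2-Ab1 was then at -3.08, H2-DMa at -3.60 and H2-DMb1 at -4.31. The H2-O genes did not pass, H2-Oa at -0.34 (95% confidence interval -1.19 to 0.50) and H2-Ob at 0.42 (-0.96 to 1.79), and neither did Cd74 at -1.25 (-2.20 to -0.30, adjusted p = 0.0869), which passed without splenic CD4+ DC replicate 2 (0.0271) or LN CD11b+ DC replicate 3 (0.0299).

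Monocytes were lower than splenic and LN CD11b+ DCs in 8 or more members, and higher or lower than LN CD103+ DCs by gene. All 10 were lower than in splenic CD8+ DCs without overlap, where 21.7% of tested genes were lower and 42.1% called and 28.7% had all monocyte libraries lower, although H2-DMb1 missed the threshold without CD8+ replicate 3 (adjusted p = 0.0797). Against splenic CD4+ DCs 8 were lower (24.2% of tested genes lower, 48% called), all but H2-DMa (log2 fold change -0.58, adjusted p = 0.216) and H2-DMb1 (0.14, adjusted p = 0.817). The same 8 were lower than in LN CD11b+ DCs (26.5% lower, 47.8% called), of which Ciita (-1.53, adjusted p = 0.0131) missed the threshold without CD11b+ replicate 1 (0.0514) or monocyte replicate 3 (0.053). Against LN CD103+ DCs Cd74, H2-Aa, H2-Oa and H2-Ob were lower and H2-DMa and H2-DMb1 higher (53.2% of tested genes called, 28.6% lower and 24.6% higher). Of these, Cd74 and H2-Aa were lost without CD103+ replicate 1, as given above, and H2-Ob moved from -3.22 to -1.89. These comparisons share the monocyte libraries.

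Other regulators of class II genes differed between organs in both directions. Of 14 listed regulators, 6 were higher and 2 lower in LN CD103+ than in splenic CD8+ DCs, where 23.8% of tested genes were higher and 21.8% lower. In LN CD11b+ against splenic CD4+ DCs 4 were higher and 1 lower, where 19.3% of tested genes were higher and 13.8% lower. The list includes Nlrc5, the class I counterpart of Ciita, which is among those counted as higher in both comparisons. Rfxap, a subunit of the RFX complex that binds the X box, was one of those lower in DC1 (39.3 ± 2.23 SD CPM in spleen and 12.1 ± 1.68 in LN, n = 3 each, log2 fold change -1.69, adjusted p = 9.54e-06), while Rfx5, another subunit, was at 0.51 (adjusted p = 0.04), a call lost without any 1 of the CD8+ libraries or CD103+ replicate 2 (0.0792 to 0.228). Irf8, a factor of the DC1 lineage, was lower in LN among DC1 (-2.02, adjusted p = 5.11e-06) and higher in LN among DC2 (2.20, adjusted p = 4.64e-06). Prdm1 encodes Blimp-1, a repressor known to act on Ciita. It was at 0.485 ± 0.0841 CPM in splenic CD8+ DCs and 9.32 ± 0.928 in splenic CD4+ DCs, against 31.8 ± 7.98 in LN CD103+ DCs. Monocytes had 43.4 ± 15.2 CPM and LN CD11b+ DCs 40.9 ± 9.001 CPM. Its LN to spleen log2 fold change was 5.97 in DC1 (adjusted p = 9.94e-10) and 2.13 in DC2 (adjusted p = 1.11e-05).

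Genes that act on class II protein at the surface were divided. March1, a ubiquitin ligase that marks surface class II for degradation, measured 158, 156.5 and 201 CPM in splenic CD8+ DCs and 134, 92.7 and 82.2 in splenic CD4+ DCs. It measured 19.1, 3.28 and 5.80 CPM in LN CD103+ DCs and 26.6, 20.2 and 16.8 in LN CD11b+ DCs, without overlap between the organs, and 102 to 124 in monocytes. The log2 fold change of March1 was -4.20 in DC1 (adjusted p = 2.7e-07) and -2.27 in DC2 (adjusted p = 0.000197). Cd83, which opposes March1, ran the other way, at 429 to 690.3 CPM in splenic and 882 to 2909.8 in LN DCs (log2 fold change 2.25 in DC1, adjusted p = 3.82e-06, and 1.65 in DC2, adjusted p = 0.000161). March8, a relative of March1, was low throughout and higher in LN (1.74 in DC1, adjusted p = 0.00316, and 1.91 in DC2, adjusted p = 0.00241).

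Of 8 listed proteases and helpers of antigen processing, 5 were higher and none was called lower in LN DC1, where 23.8% of tested genes were higher and 21.8% lower. In LN DC2 4 were higher and none lower, where 19.3% were higher and 13.8% lower. Legumain (Lgmn), which starts the cleavage of the invariant chain, had log2 fold changes of 2.36 in DC1 (adjusted p = 1.75e-05) and 1.81 in DC2 (adjusted p = 0.000369). Cathepsin S (Ctss), which finishes it, was higher in LN DC1 (1.19, adjusted p = 0.000169) and not called in DC2 (0.20, adjusted p = 0.507). Cst3, encoding the cathepsin inhibitor cystatin C, was 17791 ± 1942 CPM (SD, n = 3) in splenic CD8+ and 1533 ± 289 CPM in splenic CD4+ DCs. In DC1 all LN libraries lay below the splenic ones for Cst3, without a call (-0.47, adjusted p = 0.0629).

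Most class I presentation genes were higher in LN, opposite to the class II genes. Of 12 listed genes, 8 were higher and 2 lower in LN DC1, the 2 being the chaperones Calr (-0.77) and Pdia3 (-1.40), with a median of 0.94 (23.8% of tested genes higher, 21.8% lower). In LN DC2 9 were higher and none lower, also with a median of 0.94 (19.3% higher, 13.8% lower). B2m, the light chain of class I, was 2.03 higher on the log2 scale in LN DC1 (adjusted p = 4.4e-06) and H2-K1 1.98 (adjusted p = 2.01e-06). Nlrc5, the class I counterpart of Ciita, rose from 81.8 ± 21.6 to 491 ± 67.1 CPM in DC1 (2.59, adjusted p = 9.58e-08) and from 49.5 ± 11.7 to 193 ± 40.4 in DC2 (1.96, adjusted p = 5.14e-06).

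**Figure D5:**
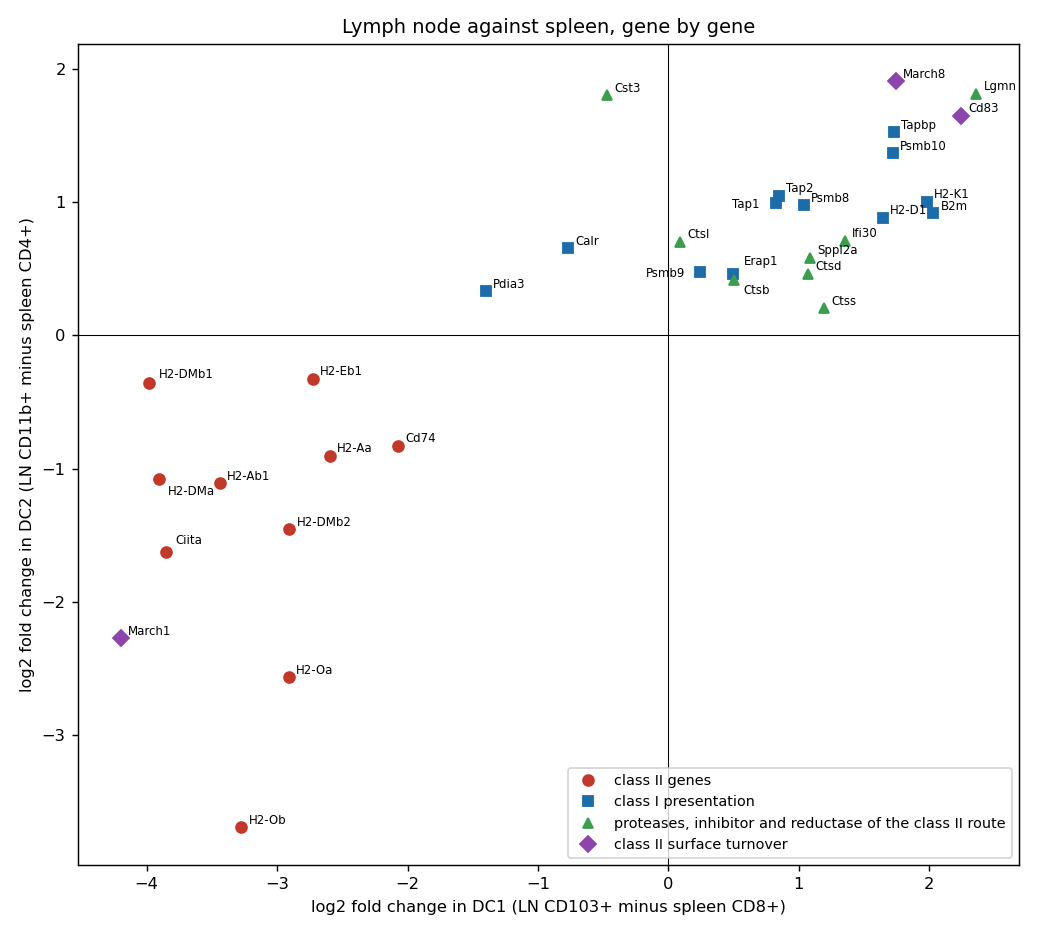
Log2 fold change of LN over splenic DCs in DC1 (x axis) and DC2 (y axis) for the 10 members and the listed genes of antigen processing, surface turnover and class I presentation. All 10 members lie left of and below 0, as does March1, and 10 of the 12 class I genes lie right of and above 0.

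Neighbours of the members on chromosome 17 were looked at next. The 8 tested genes that lie between the outermost members without being members, such as Tap1, Tap2, Psmb8 and Psmb9 of the class I pathway and Brd2, held 5 that were higher and none that was lower in LN, in DC1 as in DC2, against 23.8% and 19.3% of tested genes higher. The median log2 fold change was 0.83 in DC1 and 0.86 in DC2, against -3.09 and -1.09 for the 10 members. These neighbours are not all separate measures, as counting was without strand and some gene spans overlap. Gm20496 overlaps Psmb8 and Tap2, Gm15821 lies within Tap2, and Psmb9 overlaps Tap1. Tap1, Tap2, Psmb8 and Psmb9 were also among the class I genes listed above. H2-Eb2, the gene beside H2-Eb1 whose promoter stretch is given above, went against H2-Eb1. It measured 7.53, 7.42 and 6.18 CPM in splenic CD8+ DCs, 91.8, 94.3 and 71.6 in splenic CD4+ DCs, 64.3, 65.2 and 69.9 in LN CD103+ DCs, whereas LN CD11b+ DCs had 133, 116 and 81.1 CPM and monocytes 0.778 to 3.34. In DC1 H2-Eb2 was higher in LN (log2 fold change 3.24, adjusted p = 9.58e-08), where H2-Eb1 was lower (-2.73, adjusted p = 1.76e-06).

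Across the 15 libraries the members followed each other to different degrees. Pearson's r of log2 CPM between members had a median of 0.855, from 0.257 for H2-DMb1 with H2-Oa to 0.983 for H2-Aa with Cd74. The 15 points share 5 subtypes, so that these values mostly describe subtype means. Outside the members, the profiles most like the mean of the chains and Cd74 were those of Itgax (r = 0.972), Rpl12 (0.969) and Asb2 (0.967). For H2-M they were Aurkb (0.935), Idh3a and Parvg (both 0.930), for Ciita Stra6l (0.962), Apex1 (0.947) and Rcc2 (0.946), and for H2-O BC051537 (0.989), which overlaps H2-Oa, Cenpf (0.989) and Top2a (0.987).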

How the data were processed

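Poly-A RNA of sorted cells was amplified with a SMARTer kit and sequenced on Ion Torrent. Per the submitters' processing notes and the file headers, the authors aligned reads of at least 30 bases to mm10 with STAR 2.4.0j and counted unique reads per gene of Ensembl 75, without strand, with featureCounts (Subread 1.5.2). Deposited were raw counts for 38924 genes and TPM computed by the authors from them. Monocyte counts are the sum of 2 sequencing runs. Libraries held 4531243 to 10233914 counts.

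From the counts, 14456 genes above 1 CPM in at least 3 libraries were fitted in edgeR 4.0.16 (R 4.3.3), with TMM scaling and the quasi-likelihood test over all 15 libraries and 5 subtypes, and p-values were adjusted by Benjamini-Hochberg over all genes, with 0.05 as threshold. Printed CPM use the TMM-scaled library totals, and fold changes are of fitted values. Ratios and shares came from the deposited TPM and counts and were compared by two-sided exact permutation tests, adjusted over 15. The script was tested on simulated data. Alternatives were DESeq2 1.42.0, limma 3.58.1 on log2(TPM + 1), RLE scaling, TMM without the members, other filters, a fold requirement, fits of the compared subtypes alone, a replicate block and leaving out each library. Same-numbered libraries deviated together, with r over 0.1 in all 3 pairs, between splenic CD8+ and CD4+ DCs (0.162 to 0.375) and LN CD103+ and CD11b+ DCs (0.179 to 0.259). The same held between splenic CD4+ and LN CD11b+ DCs (0.197 to 0.266) and splenic CD4+ and LN CD103+ DCs (0.117 to 0.146). The numbers were taken to pair all of these. Same-numbered libraries did not deviate together between splenic CD8+ and LN CD103+ DCs (0.0374 to 0.086) or with monocytes (-0.0353 to 0.0399). The pairing comes from the data, not the labels. The edgeR p-values of the main fit measure the spread between libraries, each a pool of mice. That fit does not model what same-numbered libraries share. Permutation tests of monocytes against DCs also take in the spread between DC subtypes. All 10 members are named, as are genes of lists of regulators, processing, surface turnover, the class II region and class I presentation, and the 5 genes most like each of 4 member profiles, of which the first 3 are given. Members and lists were chosen with earlier results of these data known. 10 of 11 B cell markers were measured, and a further marker is not reported here.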

Additional observations from a re-analysis of the deposited data

Results flagged for a closer look

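6 members had an organ difference that differed between the lineages by the edgeR interaction test. The LN to spleen log2 fold change in DC1 minus that in DC2 was -1.70 for H2-Aa, -2.33 for H2-Ab1, -2.40 for H2-Eb1, -2.23 for Ciita, -2.83 for H2-DMa and -3.62 for H2-DMb1. All 6 values are negative, so that the DC1 lineage had the larger drop. LN CD103+ DC replicate 1 was the highest of its group for every member, so that leaving it out was bound to widen these values. Without replicate 1 they were -1.96, -3.08, -2.68, -3.71, -3.60 and -4.31 in the same order. Its B cell, DC1 and plasmacytoid DC marker sums were also the highest of its group, and its migratory DC and T cell sums the lowest. The part of these markers in the 6 values was not tested. The part of organ, cohort and gate in the 6 values cannot be told apart.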

How the results depend on the processing

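Of 2640 values of single members under an alternative, 2539 kept their side of the threshold, 58 lost the call and 42 gained one. The remaining 1 was called in the direction opposite to its uncalled main value. It was H2-Ob in LN CD103+ against CD11b+ DCs, not called at 0.12. That value ranged from -1.21 without LN CD103+ DC replicate 1 to 0.52 without replicate 3. Values called in neither fit count as kept even where their sign changed. H2-Ab1 of monocytes over LN CD103+ DCs, for example, went from -0.28 to 0.47 without LN CD103+ DC replicate 1. Of 1080 values of the 15 other genes tested by name, 1010 kept their side of the threshold, 59 lost the call and 11 gained one. Between splenic CD8+ and CD4+ DCs 1 member was called, against 2 with RLE scaling, 2 with DESeq2, 5 with no filter on low counts and 0 to 2 when 1 library was left out. Between LN CD11b+ and splenic CD4+ DCs 7 were called, and 3 to 8 when 1 library was left out, with 3 without CD11b+ replicate 3 and 4 without CD4+ replicate 1. The log2 LN to spleen difference of the H2-Ab1 to H2-Aa ratio, -0.63, ranged from -0.78 to -0.52 and passed the exact permutation test without CD4+ replicate 3 (-0.69) or CD11b+ replicate 1 (-0.68). The DC1 to DC2 difference of the class II share, -0.82, ranged from -0.96 to -0.74 and passed without CD4+ replicate 3 (-0.92). The causes were not tested. The other counts of called members stayed within 1.5 times.

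A replicate block called 3 members in place of 1 between splenic CD8+ and CD4+ DCs and 8 in place of 7 between LN CD11b+ and splenic CD4+ DCs, and changed no call between LN CD103+ and CD11b+ DCs. In comparisons whose numbers do not all pair, it called Cd74 (adjusted p = 0.0193) and H2-DMb2 (0.0288) in the interaction, H2-Eb1 (0.0491) and Ciita (0.029) between monocytes and LN CD103+ DCs, and Cd74 (0.0295) between LN CD11b+ and splenic CD8+ DCs. No member lost a call under it. 13 of 15 libraries correlated best with their own number. Monocyte values of H2-Oa and H2-Ob rest on 7 to 34 counts a library.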
